A study of Mus musculus with 6 samples.

Results

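The PI3K, AKT, mTOR and FoxO genes described here are *Pik3ca*, *Pik3cd*, *Pik3r1*, *Akt1*, *Akt2*, *Mtor*, *Tsc2*, *Foxo1* and *Foxo3*, which were taken by symbol and make up 9 of 26216 gene names in the deposited RNA-seq data. The values come from LT/ST-HSCs, a mix of long-term and short-term hematopoietic stem cells that was sorted from bone marrow as live lineage-negative cells with Sca1, c-kit and CD150 but without CD48. The donors were *Ltbr*-/- mice (CD45.2), homozygous for an intragenic deletion of the lymphotoxin-β receptor in all cells, and congenic Ly5.1 mice (CD45.1) with an intact receptor. LSKs, the lineage-negative Sca1+ c-kit+ progenitors, of both donors were mixed and given to Ly5.1/Ly5.2 hosts after a lethal dose of irradiation. The sort was done 6 weeks later, and for each genotype 3 replicates were made by pooling over 6 chimeras. Donor age was 13 weeks, 10 weeks and 10 to 13 weeks in *Ltbr*-/- replicates 1, 2 and 3, and 7 to 13 weeks in every Ly5.1 replicate, and age and genotype cannot be fully told apart.

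PI3K is a lipid kinase that growth factor receptors such as Kit activate in stem cells. Its product recruits AKT to the membrane, and active AKT phosphorylates TSC2, which releases mTOR complex 1 and with it cell growth and protein synthesis. AKT also phosphorylates the FoxO transcription factors, which then leave the nucleus. In blood stem cells, FoxO factors are known to maintain quiescence and resistance to oxidative stress, while unrestrained AKT or mTOR signaling is known to exhaust the stem cell pool. These steps act on proteins, so mRNA levels describe how much of each component was transcribed and not how active the pathway was. LIGHT, a ligand of LTβR, can also signal in reverse into the PI3K-AKT pathway, and the comparison of both genotypes bears on whether genes of this pathway differed without the receptor. The paper reports that its gene set enrichment analysis found no difference in PI3K-AKT signatures. Ly5.1 and host cells of the chimeras kept the receptor, so the comparison does not isolate reverse signaling.

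Because FoxO factors act by binding DNA, the motif TGTTTAC and its reverse complement GTAAACA, the core that FoxO factors share with other forkhead proteins, were looked up on both strands of RefSeq promoter windows (GRCm38.p6), which run from 250 bases before a gene's start to 50 after it. The motif stood in 3.65% of all 32851 windows and 2.58% of the windows of tested genes, in 1 of 16 windows of the 9 genes and in 4 of 26 windows of the listed FoxO target genes. The stretches below are examples from an AKT gene, a PI3K gene and 3 of the 4 listed targets with the motif, whose values follow. An upstream match in the pathway gene *Mapkap1* is not printed. The capitals mark the motif, and each stretch is written in the direction of the gene and lies upstream of an annotated start. *Akt1* is on the minus strand at chr12:112675024-112675060, *Pik3cg* on the minus strand at chr12:32208541-32208577, *Bbc3* on the plus strand at chr7:16310079-16310115, *Txnip* on the plus strand at chr3:96557821-96557857 and *Bcl2l11* on the plus strand at chr2:128125796-128125832.
Akt1: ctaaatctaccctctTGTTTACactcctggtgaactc
Pik3cg: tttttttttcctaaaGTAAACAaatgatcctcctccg
Bbc3: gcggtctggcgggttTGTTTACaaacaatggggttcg
Txnip: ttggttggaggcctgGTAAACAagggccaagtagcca
Bcl2l11: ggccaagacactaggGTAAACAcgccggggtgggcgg
A match describes the letters only. Of the 8 pathway genes with the motif in a window, all of them tested, 1 was higher in *Ltbr*-/- cells at an adjusted p under 0.05 (*Bbc3*), 1 was lower (*Pik3cg*) and 6 passed in neither direction. At that threshold 10.6% of all tested genes were higher and 4.18% lower.

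The deposited value of a gene is a linear expression value, taken here as 2 to the power of the authors' regularized log, and its log2 was compared between genotypes with limma. A gene was called when its Benjamini-Hochberg adjusted p over 13108 tested genes was under 0.05 and its fold difference was at least 1.5. The targeted gene matched the labels, with *Ltbr* between 23.1 and 26.4 in the *Ltbr*-/- replicates and between 522 and 564 in the Ly5.1 replicates. Sample medians over the tested genes ran from 8.46 to 8.47 on the log2 scale. Depth per sample is unknown from the deposited values.

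The 9 genes lie on 7 chromosomes, and their spans in RefSeq (GRCm38.p6), introns included, were as follows. *Pik3ca* (chr3:32397065-32466112), *Foxo1* (chr3:52268337-52350109), *Mtor* (chr4:148448582-148557685) and *Akt2* (chr7:27591552-27640826) are on the plus strand. *Pik3cd* (chr4:149649168-149702566), *Foxo3* (chr10:42181845-42276695), *Akt1* (chr12:112653821-112674884), *Pik3r1* (chr13:101680761-101768217) and *Tsc2* (chr17:24595816-24632676) are on the minus strand. None shares its chromosome with *Ltbr* on chromosome 6.

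None of the 9 genes was called, and none had an adjusted p under 0.05 without the fold threshold (limma). By the per-gene linear model without moderation the count was also 0, and at an unadjusted p under 0.05 limma gave 1 gene, *Pik3ca*. Of all tested genes, 2.78% were called (2.72% higher and 0.061% lower in *Ltbr*-/- cells), 14.8% had an adjusted p under 0.05 and 27.1% an unadjusted p under 0.05. The log2 fold changes, *Ltbr*-/- minus Ly5.1, ran from -0.26 for *Pik3ca* to 0.07 for *Akt2*, with a median of -0.06 against -0.01 for all tested genes. For all 9 genes the whole 95% interval of the log2 fold change from limma lay within a 1.5-fold difference in either direction, which is 0.58 on the log2 scale. These intervals use variances that limma draws toward those of other genes. *Pik3ca* varied more between replicates than 96.1% of tested genes, so its interval leans on this most. In the linear model without moderation its p was 0.154 (adjusted p = 0.401), and intervals from that model are not reported here. The regularized log draws weak values together, so that fold changes of weak genes are understated, and *Foxo1* had the lowest values of the 9. The scaling also matters here. The ribosomal protein genes themselves differed, with 77 of 80 higher in *Ltbr*-/- cells at an adjusted p under 0.05 and a median log2 fold change of 0.79, so they are no neutral reference. With each sample centred on them, which moves the median of all tested genes to -0.89, all 9 genes were called lower, at -1.14 to -0.81, as were 12010 of the 13108 tested genes.

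**Figure D1:**
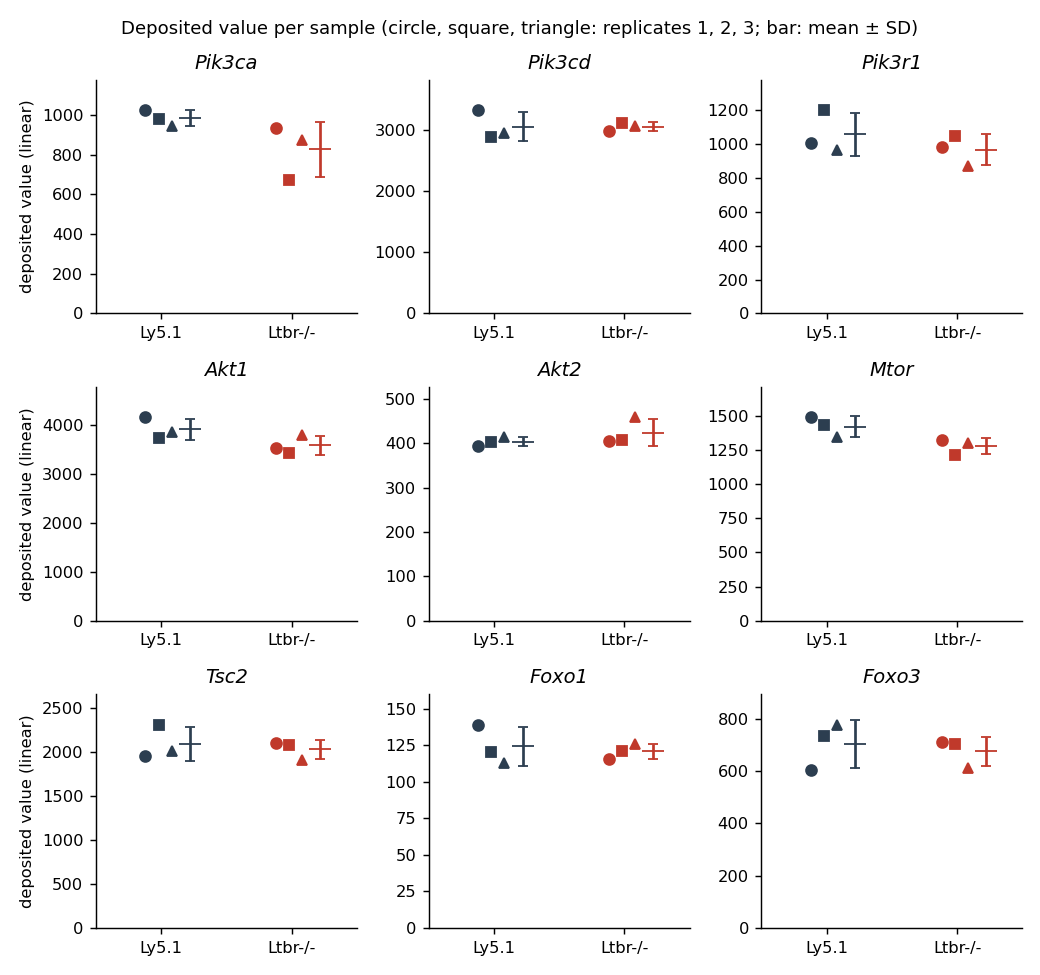
Deposited value (linear, from 0) of each of the 9 genes in the 3 Ly5.1 (dark) and 3 Ltbr-/- (red) samples, with circle, square and triangle for replicates 1, 2 and 3 and a bar for the mean ± SD. The groups stand apart for *Pik3ca* and *Mtor* and overlap for the other 7 genes.

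The catalytic subunit p110α, encoded by *Pik3ca* on chromosome 3, is found in most cell types and passes on signals from receptor tyrosine kinases. *Pik3ca* stood at 935, 672 and 873 in *Ltbr*-/- replicates 1, 2 and 3, against 1024, 979 and 944 in Ly5.1 replicates 1, 2 and 3, and values below keep this order. All 3 *Ltbr*-/- values were below the lowest Ly5.1 value, replicate 1 by 8.30 and replicate 2 by a wide margin. The means were 826 ± 138 (SD, n = 3) and 982 ± 40.0 (SD, n = 3), a log2 fold change of -0.26 (standard error, SE, 0.10, 95% interval -0.46 to -0.06, limma adjusted p = 0.0720). Of the tested genes, 87.0% had a smaller change, and 96.1% had a smaller spread between replicates than *Pik3ca*. Replicate 2 carried much of the difference. Without *Ltbr*-/- replicate 2 the log2 fold change was -0.12 (limma adjusted p = 0.521), and without *Ltbr*-/- replicate 1 it was -0.36 and past the threshold (limma adjusted p = 0.0227). It was also past the threshold when only the upper 25% of gene names were tested (limma adjusted p = 0.0410), and not when low values were left in (0.131) or transcript length and GC content were corrected for (log2 fold change -0.16, 0.272).

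*Pik3cd* on chromosome 4 encodes p110δ, the catalytic subunit that is enriched in leukocytes. It stood at 2985, 3124 and 3067 in *Ltbr*-/- samples against 3328, 2893 and 2956 in Ly5.1 samples. The means were 3059 ± 69.6 (SD, n = 3) and 3059 ± 235 (SD, n = 3), and the interval of the log2 fold change was -0.16 to 0.16 (limma adjusted p = 0.989). The groups overlapped fully, since both the highest and the lowest value belonged to Ly5.1 samples. *Pik3r1* on chromosome 13 encodes p85α and its shorter forms, the regulatory subunits that hold p110 stable and inactive until a receptor binds. It stood at 985, 1049 and 869 in *Ltbr*-/- samples against 1007, 1200.4 and 965 in Ly5.1 samples. In both groups replicate 2 was highest and replicate 3 lowest. The log2 fold change was -0.13 (SE 0.10, 95% interval -0.32 to 0.07, limma adjusted p = 0.419). It was -0.05 without *Ltbr*-/- replicate 3, -0.03 without Ly5.1 replicate 2 and -0.04 with length and GC content corrected.

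The other 2 class I catalytic subunits of the pathway list moved in opposite directions in limma. In the linear model without moderation neither had an adjusted p under 0.05 (0.173 for *Pik3cb* and 0.101 for *Pik3cg*). *Pik3cb*, which encodes p110β, stood at 318, 311 and 313 in *Ltbr*-/- samples against 223, 282 and 243 in Ly5.1 samples. It was higher by 0.34 on the log2 scale (SE 0.10, limma adjusted p = 0.0132). *Pik3cg* encodes p110γ, which is enriched in leukocytes and couples to G protein-coupled receptors. It stood at 1349.8, 1227 and 1268 in *Ltbr*-/- samples against 1589, 1621 and 1468 in Ly5.1 samples, and its log2 fold change was -0.28 (SE 0.08, limma adjusted p = 0.0195). Neither gene reached a fold of 1.5. The adjusted p of *Pik3cb* was over 0.05 without Ly5.1 replicate 1 (limma adjusted p = 0.105), and that of *Pik3cg* in 4 of the 6 fits that left out 1 sample. After the correction for transcript length and GC content, *Pik3cg* was at -0.21 with an adjusted p of 0.0649 from limma, and *Pik3cb* at 0.42 with 0.00103.

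AKT is the kinase in the middle of the pathway, and *Akt1* on chromosome 12 and *Akt2* on chromosome 7 encode its 2 most studied forms. *Akt1* stood at 3523, 3431 and 3799 in *Ltbr*-/- samples against 4149, 3727 and 3849.8 in Ly5.1 samples. *Ltbr*-/- replicate 3 lay within the Ly5.1 range and the other two below it. The log2 fold change was -0.12 (SE 0.08, 95% interval -0.28 to 0.03, limma adjusted p = 0.295). After quantile normalization it was -0.22 and past the threshold (limma adjusted p = 0.0369). *Akt2* stood at 404, 408 and 458 in *Ltbr*-/- samples against 394, 403 and 415 in Ly5.1 samples, with only *Ltbr*-/- replicate 3 outside the Ly5.1 range. Its log2 fold change was 0.07 (SE 0.09, 95% interval -0.12 to 0.26, limma adjusted p = 0.698), and 0.0088 without *Ltbr*-/- replicate 3. Of the 76-base windows of the *Akt2* transcript 9.94% also occurred in the pseudogene *Akt2-ps* or another gene, so that some of its reads may be split.

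*Mtor* on chromosome 4 encodes the kinase shared by mTOR complexes 1 and 2, and *Tsc2* on chromosome 17 encodes the protein that restrains complex 1. *Mtor* stood at 1323, 1213 and 1301 in *Ltbr*-/- samples against 1489, 1434 and 1342 in Ly5.1 samples. All *Ltbr*-/- values were below all Ly5.1 values, but by only 19.1 at the closest. The log2 fold change was -0.15 (SE 0.09, 95% interval -0.32 to 0.02, limma adjusted p = 0.249), and -0.06 with length and GC content corrected. *Mtor* and *Pik3ca* were the only 2 of the 9 genes whose groups did not overlap, both lower in *Ltbr*-/- cells, while 13.5% of all tested genes were lower without overlap and 30.4% did not overlap in either direction. For each of them the exact two-sided permutation test gave p = 0.1, the smallest p that 3 against 3 samples allow. *Tsc2* stood at 2097, 2073 and 1905 in *Ltbr*-/- samples against 1947, 2306 and 2004 in Ly5.1 samples, which overlapped, and its log2 fold change was -0.04 (SE 0.08, 95% interval -0.21 to 0.13, limma adjusted p = 0.813). *Tsc2* overlaps *Pkd1* on the other strand, and whether the authors counted reads by strand is not given in the sources used here.

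FoxO factors sit at the other end of the pathway. *Foxo3* on chromosome 10, the family member best known for its role in stem cell quiescence, stood at 709, 703 and 612 in *Ltbr*-/- samples against 603, 732 and 777 in Ly5.1 samples. *Foxo1* on chromosome 3 stood at 116, 121 and 126 in *Ltbr*-/- samples against 139, 121 and 113 in Ly5.1 samples. Within each genotype the order of the 3 samples for *Foxo1* was the reverse of that for *Foxo3*. The log2 fold changes were -0.06 for *Foxo3* (SE 0.10, 95% interval -0.25 to 0.14, limma adjusted p = 0.768) and -0.04 for *Foxo1* (SE 0.09, 95% interval -0.21 to 0.14, limma adjusted p = 0.841). *Foxo4* was at -0.03 (SE 0.10, limma adjusted p = 0.869). *Foxo6* was not tested, since its value was under 1 in all 6 samples.

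**Figure D2:**
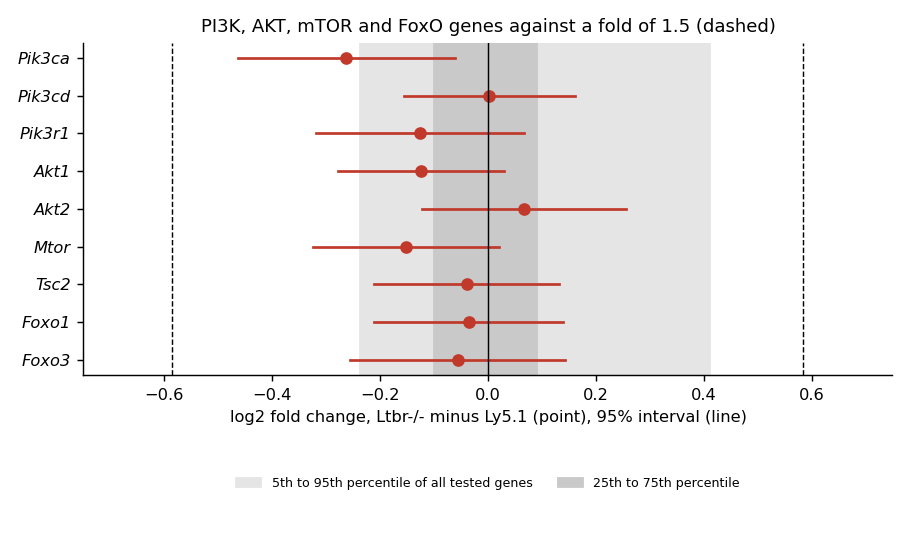
Log2 fold change of the 9 genes, Ltbr-/- minus Ly5.1 (points), with 95% intervals from limma (lines), the 5th to 95th and 25th to 75th percentiles of all tested genes (grey bands) and a fold of 1.5 (dashed). The points run from -0.26 to 0.07 and only the interval of *Pik3ca* leaves out 0, before adjustment for the number of genes. The intervals rest on variances that limma draws toward those of other genes.

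Per kilobase of the longest protein-coding transcript, and over all 6 samples, the level of *Akt1* was highest at 1393 ± 94.9 (SD, n = 6), followed by *Pik3cd* at 622 ± 31.5 and *Tsc2* at 328 ± 22.8. *Mtor* at 158 ± 11.5 and *Pik3r1* at 142 ± 15.4 came next and lay within a combined SD of each other. *Pik3ca* at 101 ± 14.0 and *Foxo3* at 101 ± 10.0 could not be ordered, and *Akt2* at 91.0 ± 5.04 was within their spread. *Foxo1* was lowest at 14.1 ± 1.07, and its linear value per kilobase was thus below that of *Foxo4* at 136 ± 10.8 and of *Foxo3*. Among class I catalytic subunits, *Pik3cd* stood above *Pik3cg* at 242 ± 28.1, *Pik3ca*, and *Pik3cb* at 43.5 ± 6.21. These levels rest on the annotated transcript, and the isoform that the cells used was not measured.

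Ratios of 2 genes within a sample do not depend on a scaling of the sample by 1 factor, and 5 such ratios were compared. The log2 ratio of *Akt2* over *Akt1* was -3.12, -3.07 and -3.05 in *Ltbr*-/- samples against -3.40, -3.21 and -3.22 in Ly5.1 samples. It was higher in all 3 *Ltbr*-/- samples, by 0.19 on average, and was the only one of the 5 ratios whose groups did not overlap. Its exact two-sided permutation p was 0.1, the smallest possible, and 0.5 after adjustment over the 5 pairs. The ratio of *Pik3cd* over *Pik3ca* averaged 1.90 ± 0.28 in *Ltbr*-/- and 1.64 ± 0.07 in Ly5.1 samples (SD, n = 3 each), a difference of 0.26 with overlap. Without *Ltbr*-/- replicate 2 this difference was 0.11. The ratios of *Pik3r1* over *Pik3ca* and *Tsc2* over *Mtor* differed by 0.14 and 0.11, and that of *Foxo3* over *Foxo1* by -0.02, and their groups overlapped. Without *Ltbr*-/- replicate 2 the first of these was -0.07, without Ly5.1 replicate 1 the second was 0.03, and the last ran from -0.21 to 0.12 over the fits that left out 1 sample. The ratio of *Foxo3* over *Foxo1* varied most among Ly5.1 samples, from 2.11 in replicate 1 to 2.78 in replicate 3.

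**Figure D3:**
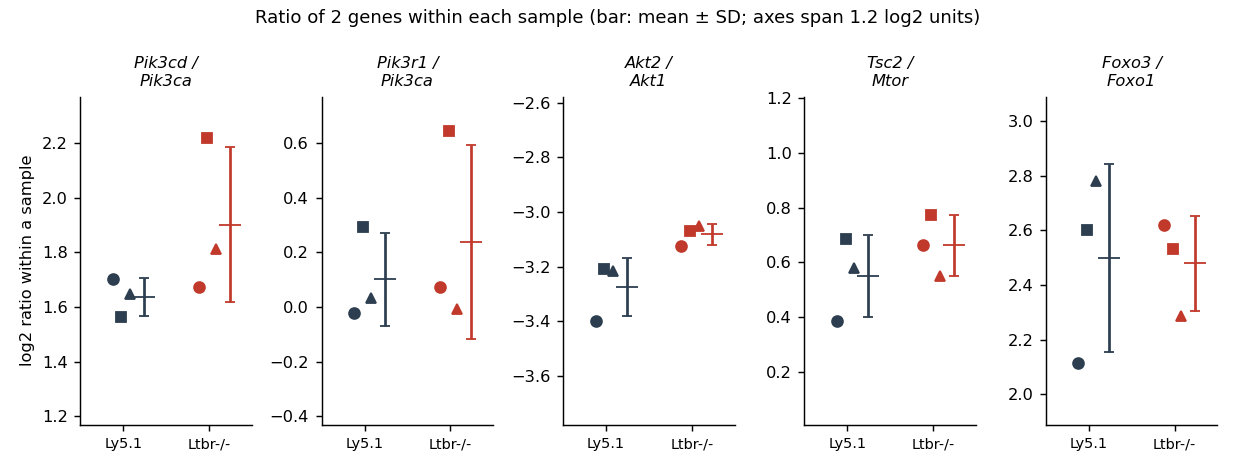
Log2 ratio of 2 genes within each sample for 5 pairs, with circle, square and triangle for replicates 1, 2 and 3 and a bar for the mean ± SD; each vertical axis covers the same width on the log2 scale. *Akt2* over *Akt1* is higher in all 3 Ltbr-/- samples, and the other 4 ratios overlap.

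Transcript length moved with the fold change across the data. The 3173 tested genes in the lowest quartile of transcript length, up to 1864 bases, had a median log2 fold change of 0.08, and the medians of the following quartiles were 0.01, -0.04 and -0.08. The transcripts of the 9 genes are long, from 2690 bases for *Akt1* to 8917 for *Pik3ca*. Of the 9 genes 7 were below 0, or 77.8%, against 53.6% of all tested genes and 66.1% of the 6735 tested genes in this range of length. The median of the 9 genes, -0.06, was close to the median of those genes, -0.05. With length and GC content corrected by loess, 4 of the 9 genes were below 0 and their median was 0.02. *Tsc2*, *Foxo1* and *Foxo3* then had log2 fold changes of 0.030, 0.061 and 0.022. *Akt1* and *Akt2* lay further from 0 than before, at -0.16 (limma adjusted p = 0.111) and 0.11 (limma adjusted p = 0.503). The part of length in the values of the 9 genes was not tested beyond this correction.

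**Figure D4:**
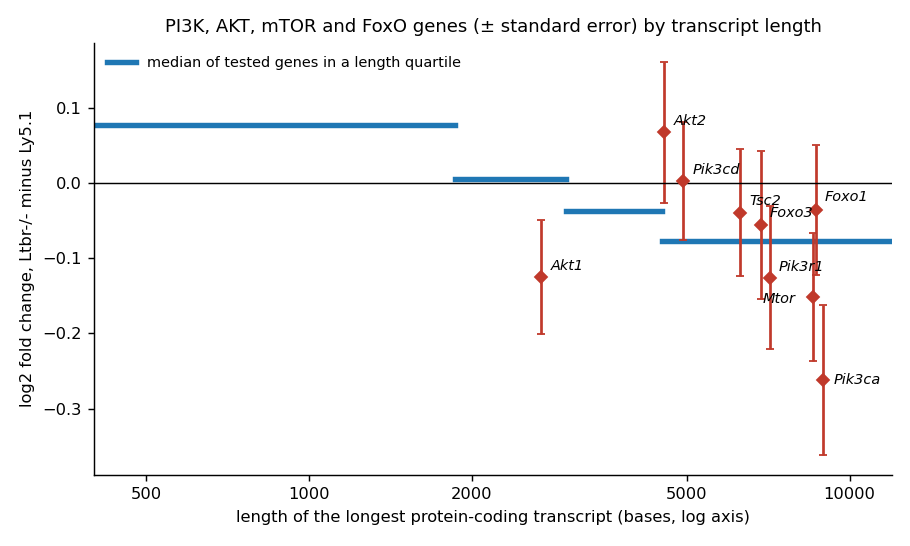
Log2 fold change of the 9 genes, Ltbr-/- minus Ly5.1 (points ± standard error), against the length of the longest protein-coding transcript (bases, log axis, which leaves out the shortest and longest transcripts), with the median of all tested genes in each quartile of length (blue). The medians fall from 0.08 in the shortest to -0.08 in the longest quartile, and 7 of the 9 points lie below 0.

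Around the 9 genes, 102 genes of the pathway and its targets were listed by role, of which 98 were tested. Of these, 12 were higher and 4 lower in *Ltbr*-/- cells at an adjusted p under 0.05, which is 12.2% and 4.08%, against 10.6% and 4.18% of all tested genes. These shares are near those of all genes. The shares of all genes also apply to the counts of single lists below, which rest on few genes each. Without *Ltbr*-/- replicate 3 the 4 lower genes became 0, and without Ly5.1 replicate 1 or 2 they became 2, while the higher genes numbered 8 to 11 when 1 sample was left out. Both genes that also passed the fold threshold were higher, and lay at the ends of the pathway, namely *Eif4ebp1* and *Cdkn1a*. The median of all 98 was -0.03. Of the 16 genes, 7 kept an adjusted p under 0.05 in all 6 fits that left out 1 sample (*Cdkn1a*, *Eif4ebp1*, *Bnip3*, *Pik3c2g*, *Csf2rb*, *Il3ra* and *Bbc3*).

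**Figure D5:**
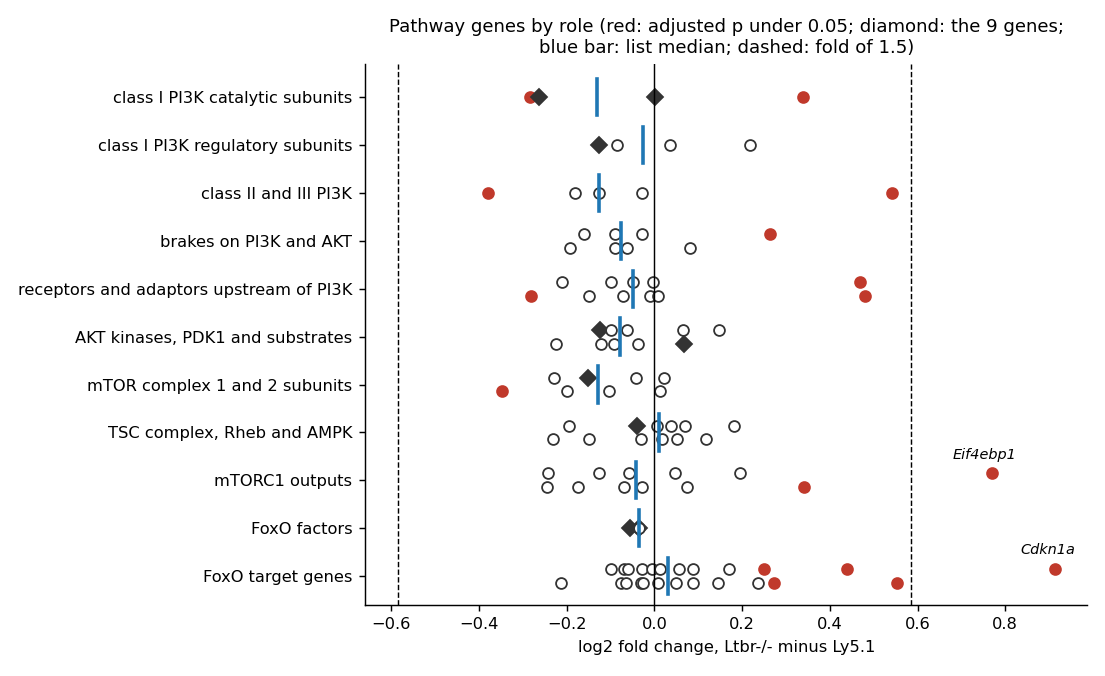
Log2 fold change, Ltbr-/- minus Ly5.1, of the tested genes of each pathway list (symbols; red for an adjusted p under 0.05 in limma, diamonds for the 9 genes), with the list median (blue) and a fold of 1.5 (dashed). Only *Eif4ebp1* and *Cdkn1a* lie beyond the dashed lines, and no diamond is red.

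Upstream of PI3K, 2 of 11 tested receptors and adaptors were higher and 1 lower (limma, with 1 and 0 in the linear model without moderation). *Csf2rb*, the β chain shared by the receptors for IL-3, IL-5 and GM-CSF, was higher by 0.48 on the log2 scale (SE 0.09, limma adjusted p = 5.05e-05). *Il3ra*, the α chain of the IL-3 receptor, was higher by 0.47 (SE 0.09, limma adjusted p = 0.000325). In *Csf2rb*, 10.5% of the 76-base windows were shared with other genes, mostly its near copy *Csf2rb2*. *Flt3*, a receptor of multipotent progenitors, was at -0.28 (SE 0.09, limma adjusted p = 0.0355), and its adjusted p stayed under 0.05 in 1 of 6 fits that left out 1 sample. *Kit* at -0.15, the receptor for stem cell factor, did not pass the threshold (limma adjusted p = 0.154), nor did *Igf1r*, *Insr*, *Irs2*, *Tek*, *Gab1* and *Gab2*. All *Kit* values of *Ltbr*-/- samples, 5179 to 5551, were below those of Ly5.1 samples, 5849 to 6103, as for 13.5% of all tested genes. By quantitative RT-PCR the paper reports significantly lower *Kit* without LTβR signaling.

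Of the class I regulatory subunits 0 of 4 tested genes had an adjusted p under 0.05 (limma, with 1 at an unadjusted p under 0.05 and 0 in the linear model without moderation), with *Pik3r2* at 0.22 and *Pik3r1* at -0.13 at the ends. In the class II and III enzymes, which make other phosphoinositides and act in membrane traffic and autophagy, 1 of 5 was higher and 1 lower (limma). In the linear model without moderation these counts were 1 and 0. *Pik3c2g* stood at 248, 278 and 240.1 in *Ltbr*-/- samples against 166, 180 and 180 in Ly5.1 samples, a log2 fold change of 0.54 (SE 0.09, limma adjusted p = 2.88e-05). *Pik3r4*, the regulatory subunit of the class III enzyme, stood at 743, 727 and 603 in *Ltbr*-/- samples against 948, 838 and 902 in Ly5.1 samples, a log2 fold change of -0.38 (SE 0.09, limma adjusted p = 0.00403). The groups did not overlap for either gene. The adjusted p of *Pik3r4* was over 0.05 without *Ltbr*-/- replicate 3 (limma adjusted p = 0.0753). *Pik3c2g* (chr6:139614072-139969284) lies on the same chromosome as the targeted *Ltbr* (chr6:125306571-125313885), and what this linkage contributes was not tested.

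Among the brakes on PI3K and AKT, 1 of 8 was higher in limma, or 12.5% against 10.6% of all tested genes, and 0 in the linear model without moderation. *Inpp4b*, a lipid phosphatase, was at 0.26 (SE 0.09, limma adjusted p = 0.0458), which stayed under 0.05 in 2 of 6 fits that left out 1 sample. *Inpp5d*, which encodes the phosphatase SHIP1 of blood cells, was at -0.16 (limma adjusted p = 0.203).

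Of the 10 genes for AKT kinases, PDK1 and AKT substrates, 0 had an adjusted p or an unadjusted p under 0.05 (limma; 0 adjusted in the linear model without moderation), and they ran from -0.22 for *Sgk3* to 0.15 for *Bad*. In the mTOR complexes 1 of 8 was lower (limma, with 0 in the linear model without moderation). *Rictor*, which defines complex 2, stood at 769, 632 and 448 in *Ltbr*-/- samples against 710.3, 818 and 769.8 in Ly5.1 samples. Its log2 fold change was -0.35 (SE 0.12, limma adjusted p = 0.0417), although the groups overlapped, and without *Ltbr*-/- replicate 3 it was -0.13 (limma adjusted p = 0.517). *Rptor*, which defines complex 1, was at -0.10 (limma adjusted p = 0.509). Of the 12 genes for the TSC complex, Rheb and AMPK, 0 had an adjusted p under 0.05 (limma; 2 at an unadjusted p, *Tsc1* at -0.23 and *Stk11* at 0.18, and 0 in the linear model without moderation).

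In the list of mTOR complex 1 outputs, 2 of 12 genes were higher and none lower (limma), though 1 of the 2, *Ddit4*, acts upstream of the complex. In the linear model without moderation the count was 0. *Eif4ebp1* encodes 4E-BP1, the repressor of cap-dependent translation that the complex inactivates. It stood at 1697, 1746 and 1869 in *Ltbr*-/- samples against 1157, 883 and 1094 in Ly5.1 samples, with a clear gap between the groups. The log2 fold change was 0.77 (SE 0.09, 95% interval 0.58 to 0.96, limma adjusted p = 3.54e-08), with an adjusted p of 0.0639 in the linear model without moderation. Its close relative *Eif4ebp2* was at -0.24 (limma adjusted p = 0.0852), and *Eif4e*, the cap-binding factor that both repress, at 0.08 (limma adjusted p = 0.663). *Ddit4*, a stress-induced inhibitor of complex 1, was at 0.34 (SE 0.09, limma adjusted p = 0.00978) and was over that threshold in 2 of 6 fits that left out 1 sample.

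Of 24 tested FoxO target genes 5 were higher and 0 lower at an adjusted p under 0.05 (limma; 7 of the 24 at an unadjusted p), which is 20.8% against 10.6% of all tested genes, and the list median was 0.03. In the linear model without moderation 3 were higher and 0 lower. *Cdkn1a*, the cell cycle inhibitor p21 and also a target of p53, stood at 816, 967 and 1009 in *Ltbr*-/- samples against 515, 431 and 539 in Ly5.1 samples. Its log2 fold change was 0.91 (SE 0.10, limma adjusted p = 3.35e-09), with an adjusted p of 0.0543 in the linear model without moderation. *Bnip3*, a mitophagy receptor that hypoxia also induces, was higher by 0.55 (limma adjusted p = 1.66e-05), and 15.1% of its 76-base windows were shared with other genes. *Bbc3*, the proapoptotic gene also known as *Puma* and another target of p53, was higher by 0.44 (SE 0.09, limma adjusted p = 0.000565). The other two, *Map1lc3b* at 0.27 and *Sod2* at 0.25, had adjusted p-values of 0.0461 and 0.0466 from limma which were over 0.05 in 4 and 6 of the 6 fits that left out 1 sample.

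Other targets that are often read as FoxO output did not pass the threshold. *Gadd45a* was just over it, at 0.24 (SE 0.08, limma adjusted p = 0.0521). *Cdkn1b*, the inhibitor p27, was at -0.06 (limma adjusted p = 0.733) and *Cat*, which encodes catalase, at 0.09 (limma adjusted p = 0.533). Both of the other targets whose promoter stretch is printed above were near 0, with *Txnip* at -0.07 and *Bcl2l11* at 0.06. *Sesn1* was at -0.21 (limma adjusted p = 0.124), *Ccng2* at -0.0047, *Klf2* at -0.08 and *Pik3ip1* at -0.03.

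Markers of the sorted cells were present in both groups, and the summed value of 14 HSC and progenitor markers was 21643 to 22104 in *Ltbr*-/- and 23159 to 23979 in Ly5.1 samples. At an adjusted p under 0.05 (limma) *Ly6a*, which encodes Sca1, *Cd34* and *Meis1* were lower, at -0.39, -0.31 and -0.23, and *Gata2* was higher, at 0.22. Granulocyte markers were also present, and 8 of 8 were lower in *Ltbr*-/- cells, with sums of 42902 to 43418 against 56241 to 60671. The sums of 7 mast cell and basophil markers were 7506 to 8077 against 4115 to 4701, with *Cma1* and *Cpa3* higher by 1.32 and 0.56, *Prss34* at -0.41 and past the threshold, and *Fcer1a* and *Ms4a2* at -0.10 and -0.04 and not past it. The sums of 6 erythroid markers were 3019 to 3312 against 1930.3 to 2276, with 1 gene past the threshold, *Hba-a1* at 0.99. For 7 monocyte and macrophage markers the sums were lower, at 6552 to 7231 in *Ltbr*-/- against 7265 to 7693 in Ly5.1 samples. Of these markers *Emr1* and *Cd68* were higher by 0.83 and 0.28 and *Lyz2* was at -0.42, all past the threshold. *Csf1r* at -0.27 and *Ly6c2* at -0.18 did not pass it. Among megakaryocyte markers *Itga2b* was higher by 0.31 and *Pf4* was at -0.33, both at an adjusted p under 0.05. Of the B cell markers *Cd79a* was higher, at 292 against 191 on average, or 0.62 on the log2 scale, *Cd79b* was at 0.18 and did not pass, and *Ms4a1*, *Ebf1* and *Pax5* had means under 3. The T cell marker *Lck* was at -0.06 and did not pass, and *Cd3e* and *Cd8a* had means under 3. The part of these cell types in the values of *Pik3cg*, *Csf2rb* and *Il3ra*, which myeloid and mast cells also express, was not tested, and in bulk RNA fewer cells of a type cannot be told apart from less RNA per cell.

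Of the 9 genes, *Pik3ca* had the smallest p, and the genes whose log2 values over the 6 samples were most like it were *Heatr2*, *Snapc3* and *Zfp280c*, with Pearson's r of 0.982, 0.982 and 0.979. Over 6 samples, 39 of 13108 tested genes had an r above 0.95.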

How the data were processed

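RNA of LT/ST-HSCs was sequenced as single reads from stranded mRNA libraries (3 *Ltbr*-/- and 3 Ly5.1 samples). Per the paper's methods, the authors used SeqMan NGen for assembly and ArrayStar for quantification, and took regularized log values; the labels name GRCm38. The deposited unit is a linear signal that is never negative, taken as 2 to the power of that value because 9392 rows equal exactly 1 in each sample and medians are similar. It holds no counts, so depth is unknown and precision rests on 3 replicates. Whether replicate numbers mark shared recipients is not given in the sources used here, and p-values measure the spread between these pools.

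Of 26595 rows per sample with 26216 names, a repeated name kept its highest mean (none of the 9 genes was repeated). The upper 50% by mean, 13108 genes and all 9 among them, were fitted on log2 values, with no pseudocount, in limma 3.58.1 under R 4.3.3 (lmFit, then eBayes, trend on). Calls used the thresholds of the paper's methods. The 9 genes and the lists were chosen with earlier results of these data known. Named were the 9 genes, listed paralogs, pathway genes with an adjusted p under 0.05, and the 3 genes most like the one with the smallest p; other pathway genes, list members and markers named were chosen after their values were seen. Some listed genes are counted but not reported by name here. Transcript lengths, GC content and shared 76-base windows came from GENCODE M21, and promoters and positions from RefSeq (GRCm38.p6). The fit was tested on simulated data with changes larger than those of the 9 genes, so that test does not cover changes of their size. As alternatives, the replicate number was added as a block, and other filters, scalings, variance models, pseudocounts and thresholds, summed repeats, a first-degree loess correction for length and GC content, and fits without each sample were tried.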

Additional observations from a re-analysis of the deposited data

How the results depend on the processing

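The count of 0 called genes among the 9 held under every alternative except centring on ribosomal protein genes, where it was 9, with 89 pathway genes called lower and 0 higher. Without a fold threshold 12 pathway genes were higher and 4 lower. The 2 called higher became 0 in the linear model without moderation, which takes each gene's variance from its 6 samples alone. There 5 pathway genes (*Bbc3*, *Bnip3*, *Csf2rb*, *Pik3c2g* and *Sod2*) were higher and 0 lower at an adjusted p under 0.05. Quantile normalization moved the difference in the log2 ratio of *Akt2* over *Akt1* to 0.27 and turned *Pik3cd* to -0.092; there 9 instead of 4 pathway genes, and 28 instead of 8 of all genes with the fold threshold, were lower. The cause of these changes was not tested. The correction for length and GC content turned *Tsc2*, *Foxo1* and *Foxo3* to 0.030, 0.061 and 0.022. It moved *Csf2rb*, *Inpp4b*, *Pik3c2g*, *Pik3cb* and *Sod2* further from 0, to 0.53, 0.36, 0.59, 0.42 and 0.32, and *Pik3c2g* then passed the fold threshold. *Ddit4*, *Map1lc3b*, *Pik3cg* and *Rictor* lost an adjusted p under 0.05 there (0.0572, 0.0680, 0.0649 and 0.126 from limma). Leaving out each sample gave -0.036 to 0.064 for *Pik3cd*, -0.087 to 0.035 for *Tsc2*, -0.10 to 0.048 for *Foxo1* and -0.16 to 0.020 for *Foxo3*, so that their sign was not fixed. Centring on ribosomal protein genes gave -0.87 for *Pik3cd*, -0.81 for *Akt2*, -0.44 for *Bbc3*, -0.32 for *Bnip3*, -0.39 for *Csf2rb*, -0.53 for *Ddit4*, -0.11 for *Eif4ebp1*, -0.41 for *Il3ra*, -0.61 for *Inpp4b*, -0.60 for *Map1lc3b*, -0.33 for *Pik3c2g*, -0.54 for *Pik3cb* and -0.63 for *Sod2*.

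With the replicate number as a block, 0 of the 9 genes had an adjusted p under 0.05, the smallest being 0.0663, and *Inpp4b*, *Map1lc3b* and *Rictor* lost theirs (0.0591, 0.0509 and 0.0524 from limma). The deviations of same-numbered samples from their group means had correlations of 0.03, -0.01 and 0.09 across genes. Those of differently numbered samples ran from -0.07 to 0.05. With 3 samples per group these values cannot decide whether recipients were shared, and the numbers were not treated as pairs. Depth and detection limits could not be assessed, and shrinkage in the regularized log limits what can be said of *Foxo1*.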
